A study of Mus musculus with 63 samples.

Results

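The genes described here encode 49 ribosome biogenesis factors, the nucleolar proteins that make ribosomal RNA and fold it with ribosomal proteins into new subunits. They were taken by gene symbol from a list of 50 names covering RNA polymerase I, nucleolar proteins and pre-ribosome assembly. A row was found for 49 of these names among the 15616 genes of the table, and Noc2l was not analysed here. The 49 genes were sorted by role into 5 genes of Pol I transcription, 3 of box C/D particles, 4 of box H/ACA particles, 5 abundant nucleolar proteins, 16 of small subunit assembly and 16 of large subunit assembly.

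Ribosome production begins in the nucleolus, where RNA polymerase I copies the ribosomal DNA repeats into one long precursor. Small nucleolar ribonucleoprotein particles modify that precursor, box C/D particles by methylation and box H/ACA particles by pseudouridylation, while large sets of assembly factors cleave and fold it. In liver the demand for new ribosomes climbs when hepatocytes grow and prepare to divide, and the transcription factor MYC is a well known activator of these genes.

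Poly(A) RNA was sequenced from homogenates of 63 individual freeze-clamped livers, so that hepatocytes and all other liver cells were read together. Hcfc1, an X-linked gene for a chromatin-associated co-regulator, was the target of deletion by tamoxifen in 26 males that carried Alb-Cre-ERT2tg and Hcfc1 lox/Y. These males are called KO on every day, including days 0 to 2, when the injections were given. The 12 females with Alb-Cre-ERT2tg and Hcfc1 lox/+ (Het) kept 1 intact allele, and 25 control males (WT) carried Hcfc1 lox/Y with no Cre according to the protocol, although their genotype label reads C57BL/6. For this X-linked gene, whole-liver values do not show which allele each Het hepatocyte used. Every mouse was 10 to 14 weeks old. The course was 1 mg of tamoxifen by intraperitoneal injection 3 times, 24 hours apart, on days 0 to 2. Livers were taken from day 0 to day 14, so those of days 0 and 1 were taken before the course was complete. Cre was driven by the albumin promoter and therefore acted in hepatocytes. Cre itself separates KO from WT livers together with the loss of Hcfc1, so their effects cannot be told apart, and no WT females were sequenced. Males had 2 livers per genotype on days 0 to 9 and 1 on days 10 to 13, with 1 WT and 2 KO livers on day 14. Each liver was from its own animal, and females had 1 liver per day on 12 of the days.

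The libraries held an estimated 17.0 to 55.9 M reads (M for mega) in 14174 genes of known exon length. The 49 genes were well within that depth: their lowest value rested on about 23.2 reads (Nle1, KO day 6 replicate 2), the median value on about 620 reads, and none of their 3087 values was at 0. The deposited log2 values carried a scale that differed between libraries, and the median gene of KO livers stood above that of WT livers by 0.09, 0.23, 0.33, 0.23 and 0.85 (log2) in 5 successive windows (day 0, days 1 to 2, 3 to 5, 6 to 9 and 10 to 14). Log2 changes were therefore taken relative to the median gene of every library, and levels are given as median-scaled RPKM, meaning reads per kilobase of exon scaled to library depth, with 1 further factor per library. The words rose and fell are kept for genes with an adjusted p below 0.05 in 1 direction on both scales, the centred and the deposited values. Between KO and WT they compare livers of the same days, so a change in WT livers counts toward them as well. Because the deposited values of KO livers were shifted upward, some genes lower after centring missed a call, and the number lower after centring is given beside the counts over the 49 genes. Mmachc, a known Hcfc1-dependent gene, was at 0.171 to 2.75 RPKM in every KO liver from day 3 and at 7.14 to 9.45 RPKM in WT livers of the same days. On day 0 it was at 8.72 to 8.99 RPKM in KO and 9.3 to 10.7 in WT livers. On days 1 to 2 it was at 8.07 to 10.4 RPKM in KO and 8.31 to 9.7 in WT livers. Hcfc1 itself was at 12.6 to 20.3 RPKM in KO and 6.70 to 8.30 RPKM in WT livers of days 10 to 14. Gene-level values do not separate reads inside and outside the deleted part, so this level does not check the deletion.

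Compared with WT livers, most of the ribosome biogenesis genes had risen in KO livers by days 10 to 14, many of them already by days 3 to 5. A small group went the other way. The largest increase among the 49 was that of Rrp12, whose yeast counterpart helps export pre-ribosomal subunits, at 5.30-fold on days 10 to 14. The largest decrease among them was that of Nop10, the smallest core protein of box H/ACA particles, at 0.247 of the WT level. No gene of the group rose or fell on day 0, against 0.0327% of all 12221 tested genes that rose and 0.0327% that fell, and the count at an unadjusted p below 0.05 was 1, Tsr1. On days 1 to 2, 4 of the 49 genes rose and none fell beside 9.05% and 1.82% of all genes. After centring alone 2 were lower (6.7% of all genes), and in the deposited values alone 13 were higher (16.6%). On days 3 to 5, 27 rose and 2 fell, beside 26.5% and 9.61%, and 8 were lower after centring (24.5%). On days 6 to 9, 30 rose and 9 fell, beside 35.1% and 18.8%, and 10 were lower after centring (29.9%). On days 10 to 14, 36 rose and 2 fell, beside 38.6% and 11.1%, and 7 were lower after centring (33.5%). The share that rose was thus near the background on days 1 to 2 and above it in the later windows. In the deposited values alone, 37, 32 and 43 genes were higher (47.4%, 43.8% and 71.8% of all genes) and 2, 9 and 2 lower (9.61%, 18.8% and 11.1%) in the 3 later windows.

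Over the 5 windows in turn, the median log2 change of the 49 genes was -0.05, 0.05, 0.23, 0.43 and 0.85. The median of all tested genes stayed between -0.01 and 0.08 in those windows. By single day the median difference between KO and WT was 0.16 on day 3, 0.34 on day 5, 0.53 on day 7, 0.41 on day 10, 0.99 on day 12 and 1.14 on day 14. On day 14, 42 of the 49 genes were higher in KO than in WT, where 53.9% of all genes were. The median level of the 49 genes in WT livers (centred log2 RPKM) was 2.80 and 2.98 on day 0 and 2.59 to 3.00, with a median of 2.63, on days 10 to 14.

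**Figure D1:**
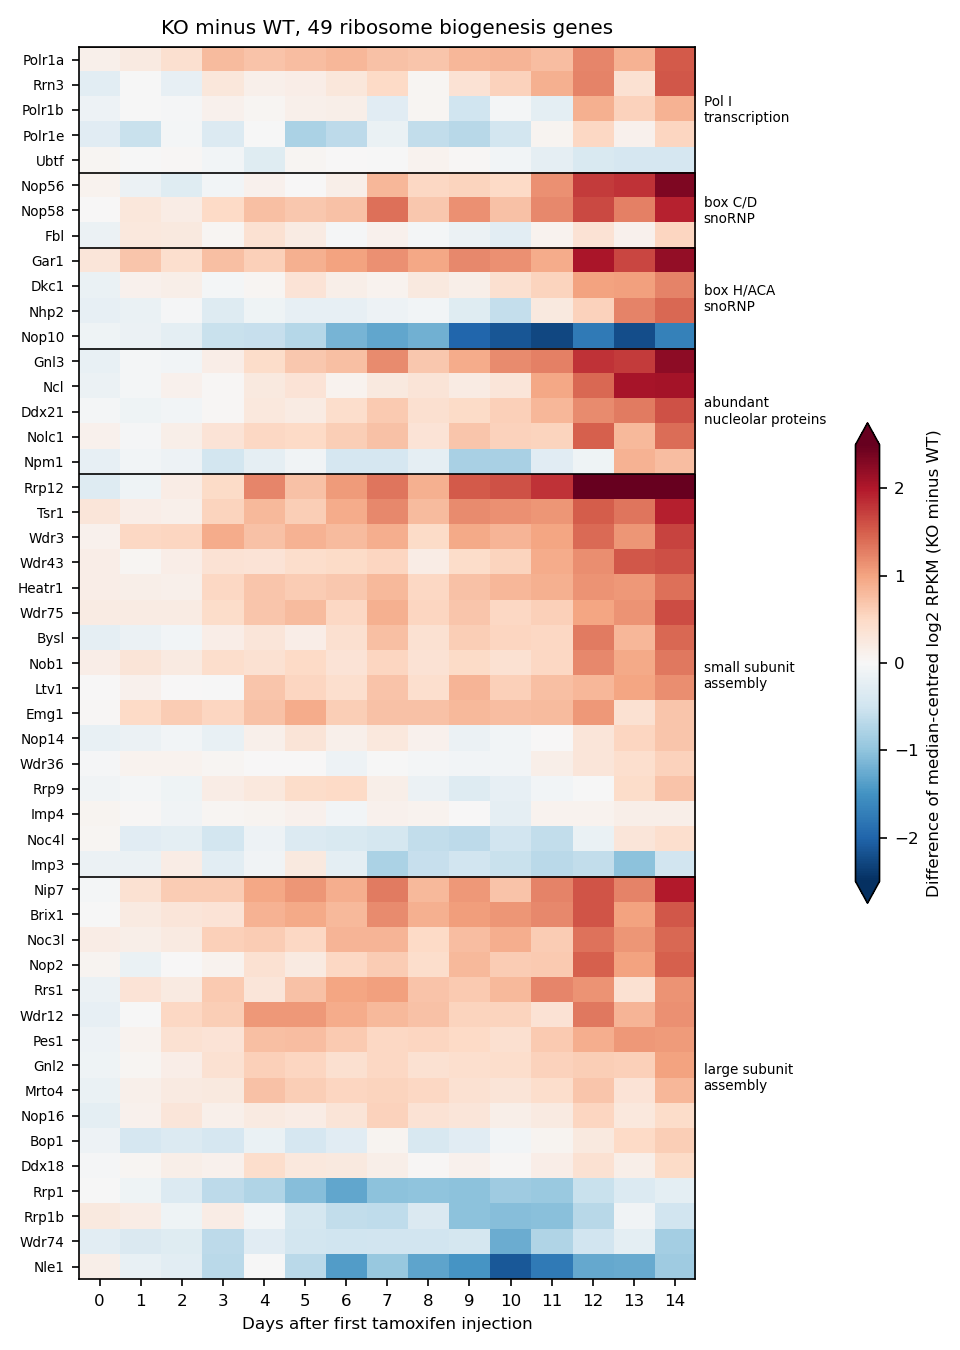
Difference of the KO mean from the WT mean on each day from 0 to 14 (median-centred log2 RPKM, colour) for the 49 genes (rows), grouped by role and sorted by the change on days 10 to 14. Colours end at a difference of 2.5, which Rrp12 passes on days 12 to 14. Most rows deepen in red from day 3, and Nop10, Nle1, Rrp1, Rrp1b, Wdr74, Imp3 and Noc4l are among those blue on most later days.

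**Figure D2:**
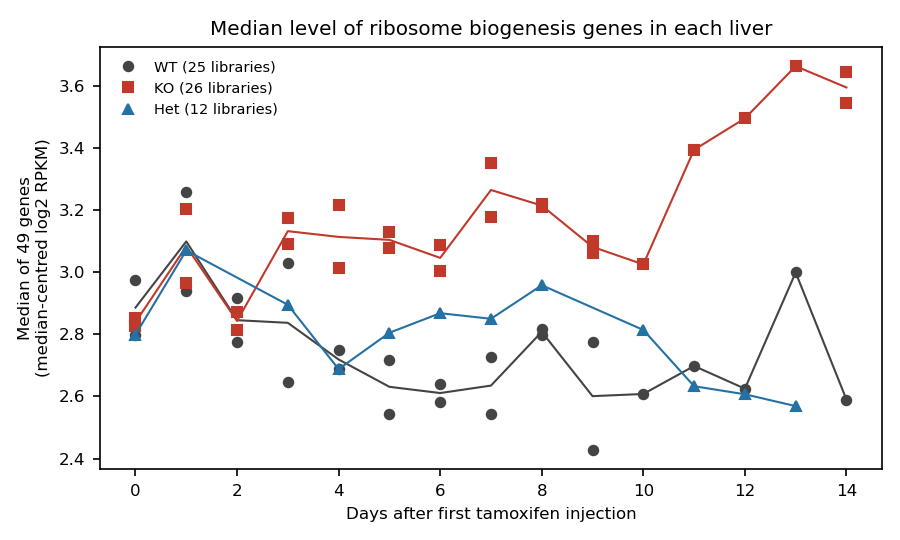
Median over the 49 genes in each liver (median-centred log2 RPKM) against day, with 1 point per liver and lines through the daily means of WT, KO and Het. The 6 KO livers of days 10 to 14 lie between 3.03 and 3.66, all above the 5 WT livers at 2.59 to 3.00.

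The groups of livers also separated gene by gene. On days 3 to 5 all 6 KO livers lay above all 6 WT livers for 21 of the 49 genes and below them for 1 (Rrp1), beside 12.5% and 12.5% of all genes. On days 6 to 9, with 8 livers a side, the counts were 22 above and 4 below (Nop10, Noc4l, Rrp1 and Nle1), beside 12% and 12.5%. On days 10 to 14, with 6 KO and 5 WT livers, 26 genes were above and 6 below (Ubtf, Nop10, Imp3, Wdr74, Rrp1 and Nle1), beside 23% and 21.6%. A change of level in whole liver cannot tell apart fewer cells of a type and less RNA per cell.

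Start-site sequences are shown for Nop10 and Nle1, the genes that fell on both days 6 to 9 and days 10 to 14, and for Tsr1, the small subunit factor that followed the group's median most closely. Each holds 250 bases before and 50 after the annotated start (RefSeq, GRCm38.p6), 5′ to 3′ on the gene's strand. Capitals mark matches to motifs of transcription factors, some of which are known to bind HCF-1, the Hcfc1 protein: ACTACA, any 2 bases and TCCC for ZNF143 and THAP11 in Nop10 (chr2:112261676-112261975, plus strand), CACGTG for MYC in Nle1 (chr11:82908346-82908645, minus strand), and CCGGAAGT for GABP followed by CACGTG in Tsr1 (chr11:74897830-74898129, plus strand).
Nop10: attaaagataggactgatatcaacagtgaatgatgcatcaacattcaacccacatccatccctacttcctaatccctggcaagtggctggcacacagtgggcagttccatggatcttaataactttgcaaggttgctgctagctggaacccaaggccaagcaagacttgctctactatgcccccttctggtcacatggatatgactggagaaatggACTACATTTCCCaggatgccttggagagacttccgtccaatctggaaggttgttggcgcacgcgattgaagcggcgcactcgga
Nle1: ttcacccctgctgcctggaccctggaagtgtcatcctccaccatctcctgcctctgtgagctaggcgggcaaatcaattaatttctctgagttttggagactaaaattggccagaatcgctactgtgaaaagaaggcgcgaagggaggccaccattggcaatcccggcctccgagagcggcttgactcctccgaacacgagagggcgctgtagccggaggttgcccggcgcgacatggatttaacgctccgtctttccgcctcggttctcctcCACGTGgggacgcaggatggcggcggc
Tsr1: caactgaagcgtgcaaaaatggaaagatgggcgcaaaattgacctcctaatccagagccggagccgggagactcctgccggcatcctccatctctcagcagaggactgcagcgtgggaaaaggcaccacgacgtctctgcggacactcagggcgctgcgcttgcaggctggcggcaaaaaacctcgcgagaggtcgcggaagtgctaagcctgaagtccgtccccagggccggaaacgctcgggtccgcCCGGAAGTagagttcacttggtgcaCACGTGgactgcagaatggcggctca
A RefSeq start sequence was matched for 42 of the 49 genes, and Bop1, Rrs1, Fbl, Gnl2, Npm1, Wdr36 and Rrp12 had no entry. On either strand, CCGGAAGT stood in 12 of the 42 (28.6%) against 4.31% of 27025 mouse genes, and CACGTG in 8 (19.0%) against 8.09%. The ZNF143 and THAP11 motif stood in 4 (9.5%: Polr1b, Nop10, Nop14 and Nop16) against 2.08%, and AANATGGCG, the YY1 motif, in 3 (7.1%) against 2.76%. CCGGAAGT and CACGTG both occurred among genes that rose and genes that were lower on days 10 to 14: CCGGAAGT in 10 of 31 that rose and 1 of 7 that were lower after centring (Wdr74), CACGTG in 6 of 31 and 1 of 7 (Nle1). The ZNF143 and THAP11 motif likewise stood in 3 of 31 and 1 of 7 (Nop10), and the YY1 motif in 2 of 31 and 0 of 7. The 27025 genes were all those with a start sequence, whether or not they were tested in these livers. The shares were therefore not set against expressed genes alone. A match of letters does not show that a factor binds there. The genes themselves lie at chr2:112102083-112103426 (Nop10), chr11:82714270-82721913 (Nle1) and chr11:74711573-74722844 (Tsr1) in mm9, the build of the deposited values.

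Among the 5 genes of Pol I transcription, Polr1a, the largest subunit of the polymerase, rose earliest and most. Its RPKM in WT livers of days 10 to 14 was 3.30, 3.68, 3.09, 3.47 and 2.83, and in the 6 KO livers the lowest was 5.90, the median 6.79 and the highest 8.54. All KO livers stood above all WT livers in that window. Polr1a rose by 0.75 ± 0.09 (log2 change ± SE here and throughout, limma adjusted p = 2.17e-07) on days 3 to 5, 0.78 ± 0.08 (adjusted p = 4.63e-09) on days 6 to 9 and 1.05 ± 0.10 (adjusted p = 6.26e-10) on days 10 to 14. Rrn3, which joins the polymerase to its promoter factors, rose by 0.30 on days 6 to 9 and 0.92 on days 10 to 14.

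The second-largest subunit, Polr1b, followed a different course. Its RPKM in KO livers was 2.11 and 2.54 on day 9, 3.08 on day 10, 5.00 on day 12 and 5.82 and 6.38 on day 14, while WT livers stayed between 2.71 and 3.84 from day 10. It had not passed before day 10 (log2 change -0.15 on days 6 to 9) and rose by 0.41 ± 0.09 on days 10 to 14 (adjusted p = 0.00017). Without days 13 and 14 that value was 0.20 (adjusted p = 0.15), so the call rested on those days. Polr1e, a subunit involved in initiation and elongation, fell by 0.53 ± 0.10 on days 6 to 9 (adjusted p = 5.85e-05), where its median was 0.860 RPKM in KO and 1.14 in WT, and was at 0.15 ± 0.12 on days 10 to 14 (adjusted p = 0.271). Ubtf, which opens ribosomal DNA for transcription, was lower after centring on days 10 to 14 (-0.30 ± 0.06, adjusted p = 0.00018) but higher in the deposited values (0.47).

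The box C/D proteins split. Nop56, a scaffold of these particles, made most of its climb after day 9. In WT livers of days 10 to 14 it was at 7.21, 7.80, 6.52, 8.70 and 6.02 RPKM, and in KO livers at 10.2 on day 10, 17.1 on day 11, 22.0 on day 12, 30.5 on day 13 and 30.7 and 30.4 on day 14. The lowest of these KO values was above the highest WT value. Its log2 change was 0.01 on days 3 to 5 (adjusted p = 0.913), 0.51 ± 0.08 on days 6 to 9 (adjusted p = 5.2e-06) and 1.51 ± 0.10 on days 10 to 14 (adjusted p = 1.17e-12).

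Nop58, the partner scaffold, rose earlier, by 0.64, 0.98 and finally 1.35 ± 0.11 (adjusted p = 3.27e-11) in the 3 later windows. Fbl, the methyltransferase of the same particle, passed in no window between KO and WT. Its RPKM in KO livers of days 10 to 14 ran from 11.9 to 24.4 around a median of 19.7, and in WT livers it was 14.3, 16.7, 15.5, 18.3 and 16.3. These ranges overlapped, and the log2 change was 0.16 ± 0.11 (adjusted p = 0.188).

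Box H/ACA proteins moved in opposite directions although they sit in 1 particle. Nop10 RPKM in KO livers was 46.8 and 55.6 on day 0, 30.3 and 36.1 on day 3, 24.4 and 25.3 on day 5, 13.6 and 11.4 on day 9, and then 8.07, 7.94, 9.87, 8.33, 10.3 and 11.5 from day 10 to day 14. WT livers of days 10 to 14 were at 35.5, 38.2, 33.6, 38.8 and 35.03 RPKM. Every KO liver from day 6 onward was below every WT liver. Nop10 fell by 0.61 ± 0.14 on days 3 to 5 (adjusted p = 0.000523), by 1.41 ± 0.12 on days 6 to 9 (adjusted p = 1.38e-10) and by 2.01 ± 0.14 on days 10 to 14 (adjusted p = 5.67e-12). On days 3 to 5 the call was lost in the deposited values when KO day 3 replicate 1 (-0.57), WT day 4 replicate 2 (-0.55), KO day 4 replicate 1 (-0.57) or WT day 5 replicate 2 (-0.55) was left out.

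Gar1, which assists the same enzyme, rose from the window of days 3 to 5. It was already higher in KO livers by 0.31, 0.68 and 0.42 on days 0, 1 and 2, without a call. It was at 2.15, 3.28, 1.84, 3.17 and 2.43 RPKM in WT livers of days 10 to 14 and at 4.78, 6.22, 7.58, 10.2, 11.3 and 11.0 in KO livers, with no overlap. The log2 change grew from 0.75 ± 0.16 on days 3 to 5 (adjusted p = 0.000472) to 1.08 in the next window and 1.60 ± 0.17 in the last (adjusted p = 1.13e-08). Dkc1, the pseudouridine synthase, and Nhp2, an RNA-binding core protein, rose only in the last window, by 0.85 ± 0.09 (adjusted p = 6e-09) and 0.58 ± 0.10 (adjusted p = 1.49e-05). Nhp2 was at 7.42 RPKM in the KO liver of day 10 and at 25.1 in that of day 13. Without days 13 and 14 its log2 change was 0.07 (adjusted p = 0.67).

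Of the abundant nucleolar proteins, Ncl (nucleolin, which binds precursor RNA) made the sharpest late climb. WT livers of days 10 to 14 were at 19.6, 19.4, 20.7, 21.2 and 19.6 RPKM. KO livers were at 24.2 on day 10, 37.7 on day 11, 55.8 on day 12, 88.9 on day 13 and 82.8 and 81.8 on day 14. KO and WT did not overlap there, and Ncl rose by 1.37 ± 0.07 (adjusted p = 8.04e-15). Its changes of 0.20 on days 3 to 5 and 0.21 on days 6 to 9 also passed but became 0.12 and 0.12 (adjusted p = 0.16 and 0.096) with quantile normalization.

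Gnl3 (nucleostemin, a GTPase of proliferating cells) rose from day 3 and reached 16.6, 24.4, 28.2, 42.8, 36.8 and 37.2 RPKM in KO livers of days 10 to 14, where WT livers were at 7.32, 10.2, 8.09, 12.8 and 7.90. Its log2 change there was 1.64 ± 0.12 (adjusted p = 8.66e-12). Ddx21, an RNA helicase, and Nolc1, a chaperone of small nucleolar particles, rose 2.14-fold and 1.96-fold in the same window. On days 3 to 5 Nolc1 was below its day 0 level in KO livers (-0.165) and further below it in WT livers (-0.51).

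Npm1 (nucleophosmin, a histone and ribosome chaperone) was the most abundant of the 49 in WT livers, with a median of 84.5 RPKM over all days. In KO livers it went down and then up: 46.0 and 48.2 RPKM on day 9, 49.5 on day 10, 66.5 on day 11, 81.5 on day 12, 164 on day 13 and 130 and 175 on day 14. WT livers stayed between 68.0 and 95.8 from day 6. Npm1 fell by 0.47 ± 0.08 on days 6 to 9 (adjusted p = 2.12e-05), a call that ended in the deposited values when any of 10 of its 16 livers was left out, with changes of -0.48 to -0.42. On days 10 to 14 it was at 0.09 ± 0.10 (adjusted p = 0.427), a mean of low and high days.

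**Figure D3:**
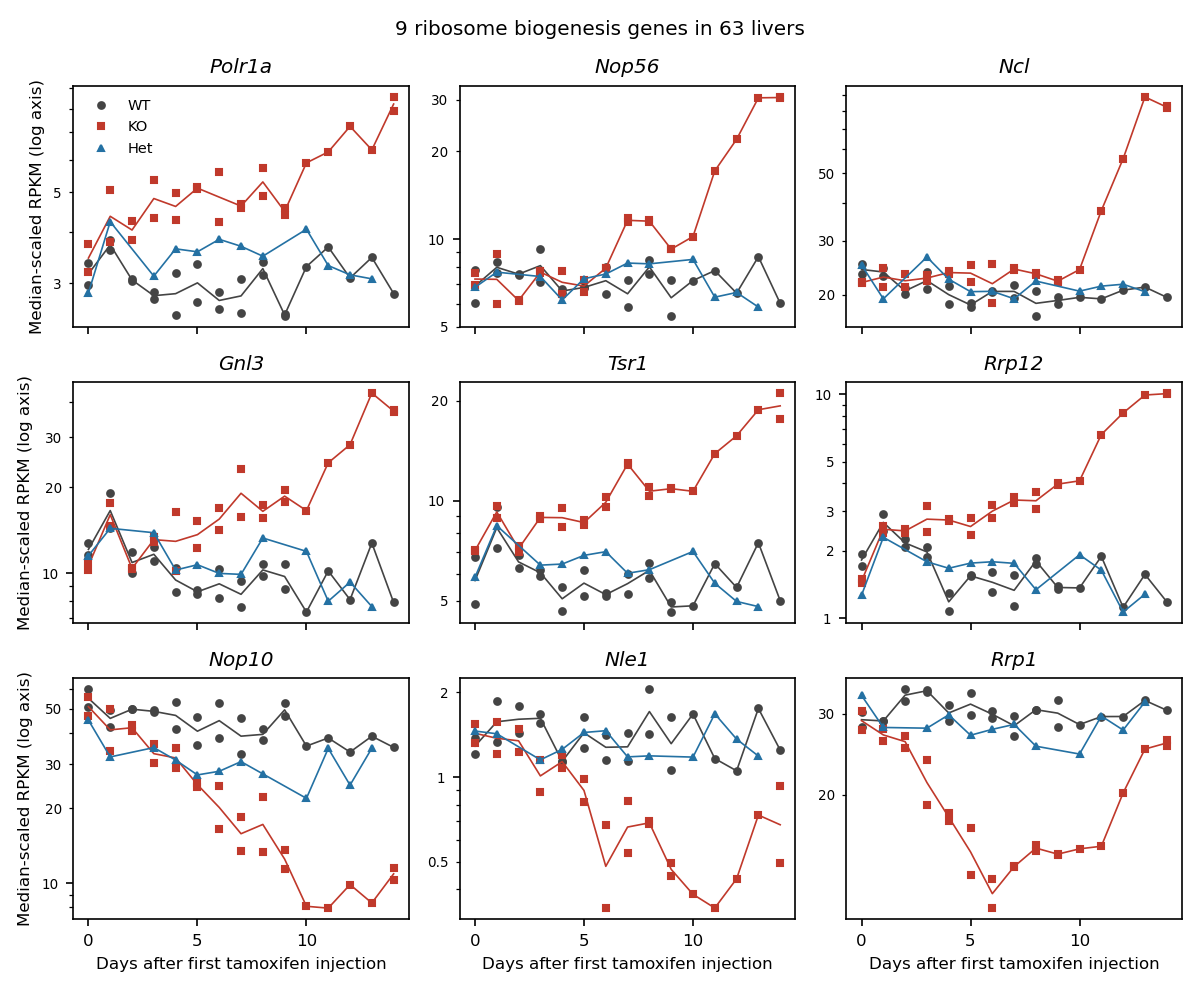
Median-scaled RPKM (log axis) of 9 genes in each of the 63 livers against day, with 1 point per liver and lines through the daily geometric means of WT, KO and Het. Polr1a, Nop56, Ncl, Gnl3, Tsr1 and Rrp12 climb in KO livers, Nop56 and Ncl most steeply after day 10. Nop10 and Nle1 decline, and Rrp1 declines to day 6 and partly returns by day 14.

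Small subunit assembly included Rrp12, the gene with the largest increase. Of its 16 genes, 2, 11, 10 and 12 rose in the 4 windows after day 0 (9.05%, 26.5%, 35.1% and 38.6% of all genes). In the same windows 0, 0, 2 and 0 fell (1.82%, 9.61%, 18.8% and 11.1%), and 0, 1, 2 and 1 were lower after centring. Rrp12 was at 1.37, 1.89, 1.12, 1.57 and 1.19 RPKM in WT livers of days 10 to 14 and at 4.11, 6.61, 8.26, 9.93, 10.1 and 10.0 in KO livers. Its lowest KO value was above its highest WT value from day 3 onward. Rrp12 rose by 0.81 ± 0.09 on days 3 to 5 (adjusted p = 4.77e-08), 1.20 ± 0.08 on days 6 to 9 (adjusted p = 9.6e-13) and 2.40 ± 0.09 on days 10 to 14 (adjusted p = 9.52e-17).

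Tsr1, a late factor related to translation GTPases, was at 4.82, 6.46, 5.48, 7.47 and 5.00 RPKM in WT and at 10.7, 13.9, 15.7, 18.8, 21.1 and 17.7 in KO livers of days 10 to 14, without overlap. It rose by 0.66 on days 3 to 5, by 1.02 ± 0.07 during days 6 to 9 (adjusted p = 2.06e-12) and 1.41 ± 0.08 on days 10 to 14 (adjusted p = 1.57e-13). Wdr3, a subunit of the U3 processome, and Emg1, an RNA methyltransferase, were among the earliest to move. On days 1 to 2 Wdr3 ran from 6.66 to 8.08 RPKM in 4 KO livers and from 4.65 to 5.97 in 4 WT livers, and rose by 0.52 ± 0.09 (adjusted p = 0.000568). Emg1 rose by 0.56 ± 0.12 in that window (adjusted p = 0.00181) and stayed close to that level, with 0.74, 0.73 and 0.74 in the later windows.

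Wdr43, Wdr75 and Heatr1, which join transcription to early processing, rose by 1.16, 0.97 and 1.06 on days 10 to 14. Bysl, Ltv1 and Nob1, which act late on the small subunit, rose by 0.92, 0.87 and 0.88, and Nop14 and Wdr36 by 0.30 and 0.28. By single day the difference between KO and WT was -0.07 on day 10 and 0.70 on day 14 for Nop14. For Wdr36 it was -0.06 and 0.58 on those days. Imp4, a U3 protein, passed in no window. Its partner Imp3 fell by 0.52 ± 0.11 on days 6 to 9 (adjusted p = 0.000293) and was lower after centring on days 10 to 14 (-0.67 ± 0.14, adjusted p = 0.000148), where KO livers were at 12.6 to 16.5 RPKM and WT livers at 18.5 to 26.1. Noc4l, a partner of Nop14, fell by 0.52 on days 6 to 9 only. Rrp9, another U3 protein, rose by 0.31 on days 3 to 5 and was at 0.18 (adjusted p = 0.101) on days 10 to 14.

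Large subunit assembly showed both directions. Of its 16 genes, 2 (Nip7 and Pes1), 10, 11 and 12 rose in the 4 windows after day 0, beside the same shares of all genes as above. In the same windows 0, 1, 4 and 1 fell, and 2, 4, 5 and 4 were lower after centring. Nip7, an RNA-binding factor, rose by 0.51, 0.90 ± 0.09 (adjusted p = 2.66e-08), 1.02 and 1.34 ± 0.10 (adjusted p = 1.39e-11) in the 4 windows after day 0. Brix1, an early assembly factor, rose by 0.71, 0.98 and 1.28 in the 3 later windows.

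Rrs1, which brings the 5S particle to the precursor, was at 8.05 to 9.67 RPKM in the 6 KO livers of days 3 to 5 (median 9.19) and at 5.33 to 7.62 in the 6 WT livers (median 5.90). It was at 10.9, 12.3, 13.4, 12.8, 14.1 and 11.7 RPKM in KO and at 6.25, 5.26, 6.17, 9.86 and 5.90 in WT livers of days 10 to 14, with day 13 the highest WT liver. KO stood above WT without overlap in both windows. Rrs1 rose by 0.56 ± 0.12 (adjusted p = 0.000585) and later by 0.93 ± 0.13 (adjusted p = 1.02e-06).

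The 3 proteins of the PeBoW complex did not move alike. Wdr12 rose most on days 3 to 5, by 0.93 ± 0.09 (adjusted p = 2.98e-09), with 7.05 to 9.37 RPKM in KO and 3.77 to 5.36 in WT livers. Pes1 rose by 0.63, 0.55 and 0.82 in the 3 later windows, and its rise on days 1 to 2 (0.24 ± 0.08, adjusted p = 0.0342) was lost when any of 7 of the 8 livers was left out, with changes of 0.21 to 0.26. Bop1 was lower after centring on days 1 to 9 (-0.39, -0.34 and -0.22) and rose by 0.27 ± 0.10 on days 10 to 14 (adjusted p = 0.0153). Nop2, an RNA methyltransferase, rose by 1.06 in the last window, Noc3l by 1.09, Gnl2 by 0.65, Mrto4 by 0.53, Nop16 by 0.32 and Ddx18 by 0.24. From day 0 to that window Nop16 and Mrto4 changed little in KO livers (0.03 and 0.06) and declined in WT livers (-0.55 and -0.63).

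Nle1, which is known from yeast to be pulled off the large subunit by the Midasin motor, fell. In WT livers of days 10 to 14 it was at 1.68, 1.17, 1.05, 1.76 and 1.25 RPKM, and in KO livers at 0.384, 0.343, 0.436, 0.734, 0.495 and 0.929. Every KO liver of that window was below every WT liver. It fell by 1.29 ± 0.15 on days 6 to 9 (adjusted p = 8.06e-08) and by 1.46 ± 0.19 on days 10 to 14 (adjusted p = 2.22e-07). Without WT day 10 replicate 1 or without KO day 10 replicate 1 the last change was -1.29 in each case and no longer passed in the deposited values, which left Nop10 as the 1 gene that fell.

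Rrp1, a nuclear factor required for large subunit RNA processing in yeast, fell early and came back. In KO livers it was at 27.6 and 30.4 RPKM on day 0, 17.5 and 18.3 on day 4, 11.4 and 13.1 on day 6, 15.3 on day 10, 20.2 on day 12, 25.2 on day 13 and 25.5 and 26.4 on day 14, while WT livers stayed between 26.9 and 34.0 from day 0. KO livers lay below WT livers in all 3 later windows. It fell by 0.83 ± 0.06 on days 3 to 5 (adjusted p = 7.21e-11) and by 1.08 ± 0.05 on days 6 to 9 (adjusted p = 7.47e-15), and was lower after centring on days 10 to 14 (-0.59 ± 0.07, adjusted p = 1.39e-08) but not in the deposited values (0.18). Rrp1b, its nucleolar paralogue, and Wdr74 fell on days 6 to 9, by 0.66 and 0.47, and were at -0.67 and -0.71 after centring on days 10 to 14. On days 6 to 9 Wdr74 was above its day 0 level in KO livers (0.23) and further above it in WT livers (0.45).

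**Figure D4:**
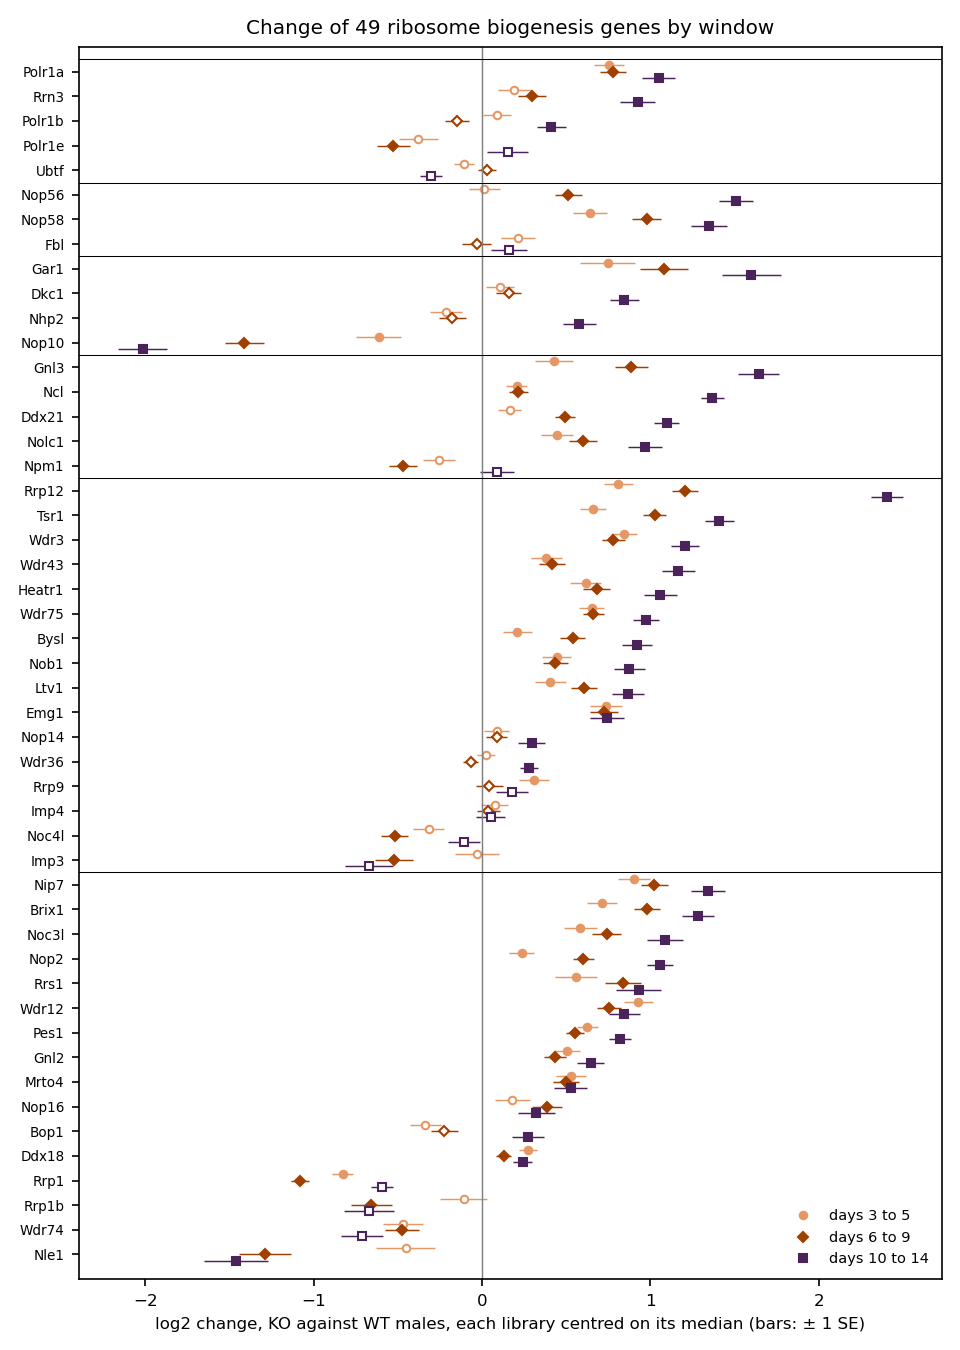
Log2 change between KO and WT of the 49 genes in 3 windows (median-centred values, x axis), with bars of 1 SE and horizontal lines between role groups. Filled points passed both after centring and in the deposited values, and open points did not. Rrp12 stands farthest right at 2.40 and Nop10 farthest left at -2.01.

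The difference between KO and WT itself changed between windows. From days 3 to 5 to days 6 to 9 it fell for 3 genes, Nop10 (-0.80 ± 0.18, adjusted p = 0.00171), Imp3 (-0.49 ± 0.17, adjusted p = 0.0375) and Nle1 (-0.83 ± 0.24, adjusted p = 0.0103), beside 11.9% of all genes, and rose for none, beside 4.71%. After centring alone 7 were higher (12.5% of all genes) and 5 lower (14.2%), among them Nop56 at 0.50 ± 0.12 (adjusted p = 0.00382). Leaving out KO day 8 replicate 2 or WT day 9 replicate 2 gave 2 or 1 genes that rose, and leaving out KO day 5 replicate 2 gave 5 that fell. From days 6 to 9 to days 10 to 14 it rose for 27 genes and fell for none, beside 18.4% and 4.4%, with 2 lower after centring (19.5%). The largest steps were those of Rrp12 (1.20 ± 0.12, adjusted p = 3.98e-08), Ncl (1.15 ± 0.09, adjusted p = 4.8e-10) and Nop56 (1.00 ± 0.13, adjusted p = 1.48e-06). In the deposited values alone 46 were higher (63.3%). This late step rested on days 13 and 14: without days 13 and 14 the number was 6, and without the WT liver of day 14 it was 17. The count that rose between KO and WT on days 10 to 14 was 30 without days 13 and 14, when 4 fell.

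Each library carried a tag, B_1 or B_2, in the authors' sample descriptions: on most days replicate 1 was B_1 and replicate 2 was B_2, but both were B_2 on days 2 and 9. On days 3 to 5, 15 genes rose and none fell among B_1 livers alone, and 24 rose and 2 fell among B_2 livers alone. On days 6 to 9 the counts were 23 and 3 for B_1, and 28 and 7 for B_2. On days 1 to 2 none rose among B_2 livers alone, where Wdr3 was at 0.47 (adjusted p = 0.17) and Emg1 at 0.60 (adjusted p = 0.055), and too few B_1 livers were left for a fit. All livers of days 10 to 14 were B_1.

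Within genotypes, 46 of the 49 genes changed over time in KO males (limma F test over 4 windows against day 0), beside 85.2% of all genes, so that the share was near the background. In WT males 8 changed (Nhp2, Ncl, Ddx21, Wdr3, Heatr1, Tsr1, Rrp12 and Nop2), beside 40.2%, with 20 after centring alone (49.1%) and 34 in the deposited values (82.6%). WT Rrp12 was at 1.71 and 1.94 RPKM on day 0, 2.46 and 2.92 on day 1, and 1.12 to 1.89 from day 10. Its WT log2 change from day 0 was 0.41 on days 1 to 2 and -0.38 on days 10 to 14, and the WT count was 5 without WT day 1 replicate 2.

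In Het females Rrp12, Nop56 and Ncl, which rose in KO livers, had values near those of WT males. Rrp12 was at 1.92, 1.64, 1.07 and 1.28 RPKM in the 4 Het livers of days 10 to 13, Nop56 at 8.52, 6.32, 6.56 and 5.85, and Ncl at 20.5, 21.3, 21.6 and 20.4. The Het values of these 3 genes lay below those of all 6 KO livers of days 10 to 14. Nop10 was at 21.9, 34.7, 24.7 and 34.8 RPKM in Het livers, all above the KO livers (at most 11.5). Of these, 34.7 and 34.8 lay within the WT range of 33.6 to 38.8, and 21.9 and 24.7 lay below it. Its Het level was already 32.1 and 45.1 RPKM on days 0 to 1, where WT livers of day 0 were at 50.7 and 60.0. The log2 change of Nop10 from those days was -0.41 in Het by days 10 to 13 and -0.61 in WT by days 10 to 14.

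Over time 2 of the 49 genes changed in Het females, Fbl (adjusted p = 0.0492) and Imp4 (adjusted p = 0.0468), beside 10.2% of 11919 genes, and 38 did in the deposited values alone (76.7%). No gene was left when any of Het days 0, 1, 3, 4, 7, 11, 12 or 13 was omitted, and 1 without day 8. From days 0 to 1 to days 10 to 13 the change in Het was below that in KO for 33 genes and above it for 2, beside 20% and 6.44% of 12380 genes, with 5 above it after centring alone (20.1%). The difference was largest for Rrp12 at -2.10 ± 0.24 (adjusted p = 3.04e-08), followed by Gnl3 at -1.53, Nop56 at -1.46, Nop58 at -1.37 and Ddx21 at -1.24. The other 2 were Nop10 at 2.00 ± 0.27 (adjusted p = 5.56e-07) and Nle1 at 1.52 (adjusted p = 0.000258). The Nle1 call was lost without any of KO day 0 replicate 2, KO day 1 replicate 2, KO days 10, 11 and 12, and Het days 0, 1, 11 and 12, with values of 1.39 to 1.52.

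On days 3 to 5 no change differed between Het and KO on both scales (0.743% and 0.46% of all genes did). After centring, Rrp1 was higher (0.54) and Pes1 and Wdr12 lower (-0.45 and -0.61) in Het, beside 2.06% and 1.79% of all genes. The change to days 10 to 13 in Het differed from that in WT males for none of the 49 genes (limma, 0.0727% and 0.113% of all genes). At an unadjusted p below 0.05 there were 2, Wdr75 (-0.49) and Wdr3 (-0.34). Sex and Cre differ between Het and WT together.

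Other genes of the same pathway were counted too. Of 75 further ribosome biogenesis genes, 11, 43, 44 and 57 rose in the 4 windows after day 0 (9.05%, 26.5%, 35.1% and 38.6% of all genes). In the same windows 0, 1, 6 and 1 fell (1.82%, 9.61%, 18.8% and 11.1%), and 0, 7, 15 and 9 were lower after centring. Their median log2 change on days 10 to 14 was 0.47, where that of the 49 was 0.85. Utp20, a scaffold of pre-ribosome processing, rose by 1.36 on days 3 to 5 and 1.85 ± 0.07 on days 10 to 14 (adjusted p = 7.71e-17), Riok3 by 1.29, Nol9, a kinase of precursor RNA ends, by 1.37 and Eif6, an anti-association factor of the large subunit, by 2.04. Tbl3, a U3 processome subunit, fell by 1.87, 2.45 and 1.86 in the 3 later windows. Of 10 other Pol I subunits and factors, 2 rose on days 10 to 14, Polr1c (0.34) and Taf1c (0.55), and 1 was lower after centring.

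Ribosomal proteins are the parts that these factors assemble. Of 72 tested cytosolic ribosomal protein genes, 17 rose and 5 fell on days 10 to 14 (26 lower after centring), beside 38.6% and 11.1% of all genes, with a median log2 change of -0.09. Of 77 mitochondrial ribosomal protein genes, 31 rose and 9 fell (21 lower after centring), with a median of 0.06. The difference of these lists from the 49 genes was not tested.

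Myc was at 2.08, 1.88, 3.95, 2.10 and 1.06 RPKM in WT livers of days 10 to 14 and at 10.5, 12.1, 10.8, 48.8, 30.5 and 26.4 in KO livers, without overlap. It rose by 0.89 ± 0.31 on days 3 to 5 (adjusted p = 0.0182), 1.39 ± 0.27 on days 6 to 9 (adjusted p = 7.15e-05) and 3.15 ± 0.33 on days 10 to 14 (adjusted p = 5.49e-09). On day 0 the WT livers were at 0.946 and 8.36 RPKM. Of 11 tested genes of the MYC network, 5 rose on days 10 to 14, beside 38.6% of all genes: Myc, Mycn (3.27), Max (1.00), Mnt (0.80) and Mxd3 (1.09). None fell, and 3 were lower after centring, Mlx (-0.85), Mxd1 (-0.42) and Mxi1 (-0.31). The part of Myc in the change of the 49 genes was not tested.

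Markers of other cells and of division were counted in the same livers. On days 10 to 14, 38.6% of all genes rose, 11.1% fell and 33.5% were lower after centring, the background for the counts below. The endothelial and macrophage shares that rose were near that background. Summed over 10 genes, stellate cell markers stood at 200 to 330 RPKM in KO and 129 to 157 in WT livers of days 10 to 14, and 10 of the 10 rose. In turn, 7 duct cell markers summed to 75.3 to 393 RPKM in KO and 37.4 to 54.3 in WT (4 of 6 tested rose), and 10 macrophage and Kupffer cell markers to 469 to 691 and 232 to 536 (5 of 10 rose). Further, 8 endothelial markers summed to 119 to 176 and 87.0 to 149 (3 of 8 rose), 9 markers of T, B and NK cells to 4.97 to 9.97 and 5.11 to 16.8 (0 of 7 rose), and 5 neutrophil markers to 15.8 to 35.9 and 8.99 to 88.9 (0 of 3 rose). No marker of these lists was at 0 in all livers of that window, and 12 hepatocyte markers summed to 8132 to 21980 RPKM in KO and 73570 to 81240 in WT, with 5 of 12 that fell and 11 of 12 lower after centring. Most of that sum was Alb, the albumin gene, at 1614 to 10000 RPKM in KO and 56520 to 63090 in WT, and Alb was already at 1445 to 2624 in KO and 26860 to 37430 in WT on days 1 to 2. In KO livers of days 6 to 9 Alb ran from 4398 to 40370 RPKM. Het livers, which also carried Cre, had Alb at 3279 to 25650 RPKM on days 3 to 5 and 3436 to 4376 on days 6 to 8. On days 10 to 13 they were at 4908 to 36630 RPKM. The other 11 hepatocyte markers summed to 6178 to 17800 RPKM in KO and 16520 to 21520 in WT livers of days 10 to 14, which overlapped. Of 17 tested mitosis genes, 16 and 12 fell on days 3 to 5 and 6 to 9 (9.61% and 18.8% of all genes). On days 10 to 14, 11 rose, with 1 lower after centring. WT livers, summed over 18 mitosis genes, stood at 4.074 to 4.284 RPKM on day 0. They were at 27.35 to 98.53 on days 3 to 5 and 16.5 to 87.54 on days 6 to 9. KO livers were at 5.56 to 6.638 RPKM on day 0 and at 9.273 to 21.99 and 13.72 to 34.93 in those windows. Both genotypes were thus above day 0, and on days 3 to 5 WT livers stood above KO livers without overlap. The part of any of these lists in the change of the 49 genes was not tested.

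Genes outside the list were ranked by how closely they followed the median of the 49 over the 30 male genotype and day means. Of 12172 genes, the 10 closest were Hnrnpf (Pearson r = 0.964), Trmt61a (0.955), Ccdc86, Dnttip2, Nifk, Eif2s1, D19Bwg1357e, Nol9, Supt5 and Krr1 (0.934). These r values describe 30 points that share libraries and time course. Within the list, Tsr1 followed the median most closely (r = 0.97), and Nop10 (-0.78), Wdr74 (-0.69), Nle1 (-0.64) and Imp3 (-0.59) ran against it. Each gene of the list is itself part of that median.

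In WT livers the levels of the 49 genes spanned a wide range of median-scaled RPKM over all days. After Npm1 came Nop10 at a median of 45.9, Emg1 at 33.6 and Rrp1 at 30.2, and the lowest were Rrp12 at 1.57, Nle1 at 1.41, Rrp1b at 1.35 and Polr1e at 1.20. Of the 49 genes, 14 have an exon that overlaps a protein-coding gene on the opposite strand in the mm9 annotation, by up to 820 bases (Wdr3 with Spag17) and by 616 bases for Tsr1 with Srr, and none on the same strand. The kit kept strand, but whether the counting used it is not given in the sources used here. Npm1 has many pseudogene copies in mouse, and how reads shared with them were counted is not given either, so its level is uncertain.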

How the data were processed

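Poly(A) RNA of whole-liver homogenate from single mice was sequenced as 50-nt single-end reads with a strand-specific kit, per the labels' protocols. The deposited table holds log2 RPKM per gene with a small constant added, made by the authors with TopHat2 2.0.13, Bowtie 1.1.2 and edgeR on mm9, per the submitters' processing notes. Read depth was estimated from the spacing of low values. From there, libraries were centred on their median over tested genes, with no further pseudocount. Tested genes had an RPKM of at least 1 in at least 4 libraries (2 for Het alone).

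Fits used limma 3.58.1 in R 4.3.3 with an intensity trend, 1 mean per genotype and day in males, and window means over days. Benjamini-Hochberg adjustment ran over all tested genes, and values after ± are standard errors. A call needed an adjusted p below 0.05 with the same sign in the centred and the deposited values. Genes named in the text were, by rule, those with the largest changes per role and window, the smallest p of each other comparison, and a short fixed set; others named were chosen after their values were seen. The 49 genes, the other lists and the motifs were chosen with earlier results of these data known. Planned fits within 1 replicate number could not be fitted, since they left no residual degrees of freedom, and fits within 1 tag replaced them, chosen after seeing the data. The second KO library of day 14 carries no number and was placed by its group name.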

Additional observations from a re-analysis of the deposited data

Results flagged for a closer look

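In 9 of 135 groups of 4 to 8 livers, over 15 quantities, 1 liver stood apart from the others by the size of its gap to the nearest value, where chance marks about 1 in 20 groups. The WT liver of day 13 had a median over the 49 genes of 3.00 (centred log2 RPKM) against 2.63 for WT days 10 to 14, and Rrs1 at 9.86 RPKM against 6.17. Nop56 was at 8.87 RPKM in KO day 1 replicate 1 (median of its group 6.16), 8.34 in WT day 1 replicate 2 (7.64) and 9.22 in WT day 3 replicate 1 (6.83). In WT day 1 replicate 1, Fbl was at 15.7 RPKM (19.8) and Nop10 at 42.2 (49.7). In the Het liver of day 10, Npm1 was at 71.4 RPKM (82.9) and Polr1b at 2.64 (3.22).

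Effects that differed between groups by a test of the difference itself were counted over the 49 genes. From days 3 to 5 to days 6 to 9 the KO against WT difference fell for 3 genes, and from there to days 10 to 14 it rose for 27. The change from days 0 to 1 to days 10 to 13 was higher in Het than in KO for 2 genes and lower for 33.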

How the results depend on the processing

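All counts here are of the 49 genes, first those that rose and then those that fell; on 1 scale alone they are called higher and lower. In the deposited values alone 13 were higher on days 1 to 2, 46 from days 6 to 9 to days 10 to 14, and 34 and 38 changed over time in WT and Het. After centring alone, 2, 8 and 7 were lower on days 1 to 2, 3 to 5 and 10 to 14, 7 were higher and 5 lower in the first change of the KO against WT difference, 2 were lower in the second, 20 changed over time in WT, and the Het change differed from KO upward for 1 and downward for 2 genes on days 3 to 5 and upward for 5 on days 10 to 13. Quantile normalization gave 2, 7 and 7, then 7 and 5, 2, 23 in WT, 0 in Het, 1 and 1, and 5. With no filter, 20 changed over time in WT and 9 in Het. A stricter filter of 4 RPKM gave 1 that fell on days 10 to 14, 0 in Het and 1 upward against KO on days 10 to 13, and a pseudocount of 1 gave 0 in Het. With the tag as a term 5 fell in the first change. B_1 alone gave 15 and 0 on days 3 to 5, 3 that fell on days 6 to 9 and 1 on days 10 to 14, and B_2 alone gave 0 that rose on days 1 to 2. With the libraries of the window alone 1 fell on days 10 to 14. Without days 13 and 14, 4 fell on days 10 to 14 and 6 rose in the second change. The cause was not tested.

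Leaving out 1 library at a time (63 refits) gave 3 to 5 that rose on days 1 to 2, 25 to 29 and 1 to 2 on days 3 to 5, 29 to 31 and 8 to 9 on days 6 to 9, 34 to 40 and 1 to 2 on days 10 to 14, 0 to 2 and 2 to 5 in the first change, 17 to 32 in the second, 44 to 46, 5 to 12 and 0 to 3 over time in KO, WT and Het, and 1 to 2 and 28 to 35 for Het against KO on days 10 to 13. Of 3395 alternative values for single genes, 3212 kept direction and call, 183 kept direction and lost the call, and 0 reversed. Replicate numbers were not taken to pair the livers, since the correlation of deviations within a day was not over 0.1 on every day (-0.055 to 0.286 over all genes, -0.219 to 0.473 over the 49 genes). With the replicate block, 5, 26, 30 and 36 rose and 0, 2, 9 and 2 fell in the 4 windows after day 0, and 45 and 10 changed over time in KO and WT, so no count moved by over 1.5 times. Days 10 to 13 had 1 liver per genotype, and Het 1 liver a day, which limits those comparisons.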
